A study of Mus musculus with 4 samples.

Results

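Tal1, also called Scl, was mapped on the chromatin of total mouse bone marrow by ChIP-seq and set against a control precipitation with IgG. The comparison uses 2 of the 4 libraries of the study, the Tal1 and the IgG library, with 1 library on each side and no replicate. Its members are all 5315 sites on chromosomes 1 to 19 of the 5391 sites in the authors' Tal1 list. The remaining 76 sites lie on chromosome X. No site was chosen by the signal of another antibody. The study asks how complexes built on Ldb1 take part in erythroid gene activation, and its other 2 libraries were made with antibodies against Ldb1 and Gata1. All 4 came from freshly isolated bone marrow cells, fixed with formaldehyde and sonicated. The labels name no strain, age, genotype or treatment, and give the Tal1 antibody as one from Santa Cruz. Bone marrow is a mixture of cell types, so a low level at a site can mean few cells that carry Tal1 there or little Tal1 in each, and these cannot be told apart.

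Tal1 is a basic helix-loop-helix transcription factor that pairs with E proteins and binds the short sequence called an E-box. In blood cells it works in complexes with Gata factors, Lmo2 and the adaptor Ldb1, and it is known for its part in the making of blood stem cells and in red cell and megakaryocyte development. In ChIP-seq, DNA fragments held by the protein are enriched, and single reads (tags) from their ends pile up on the plus strand on the left of a binding site and on the minus strand on its right. The distance between the piles and the width of their sum give the shape of the signal. IgG gives the level that the procedure reaches without a specific antibody.

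On chromosomes 1 to 19 the Tal1 library held 5519024 tags of 25 bases, of which 3477438 had a distinct position and strand. The IgG library held 7037690 tags of 36 bases, of which 5433901 were distinct. Levels below are distinct tags per 1000000 distinct tags of the library (RPM), counted within 250 bp of a site centre unless another window is named. A single tag was worth 0.288 RPM for Tal1 and 0.184 RPM for IgG. Intervals are 95% and cover counting error only, since tags were amplified and carry no molecular identifier that would tell independent molecules apart. The IgG library was read at a different tag length, and the part of that difference in the ratios was not tested. The genome sequence and gene annotation of mm8, the assembly of the files, were not used here, so sites are given by position without gene names or sequence.

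The Tal1 sites were narrow stretches with many Tal1 tags and few IgG tags. Together they held 4.20% (4.18 to 4.23) of the distinct Tal1 tags and 0.224% (0.220 to 0.228) of the IgG tags, a fold of 18.8 (18.5 to 19.2). This fold describes the list and tests nothing, since the sites were called on the same 2 libraries. It rested on the window. Within 100 bp of the centres the fold was 34.0 (33.0 to 34.9), and within 500 bp it was 11.8 (11.7 to 12.0). The Tal1 level of a site ran from 2.30 to 78.8 RPM, with a median of 5.18. The IgG level ran from 0 to 7.91 RPM, with a median of 0.368. Over the 5315 sites Tal1 and IgG levels did not run together, with a Spearman rho of -0.026. This is a description over sites of 1 pair of libraries. IgG had only 0 to 2 tags at 61.0% of the sites, and the sites were called on a fold over IgG. The rho can therefore say little about a relation.

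Most sites were weak, and a small part of the list carried much of the signal. The tag number that the authors' caller gave a site had a median of 13 and a range of 8 to 187, and 904 sites (17.0%) sat at the caller's minimum of 8. These weakest sites had a median of 3.16 Tal1 RPM, and their summed fold over IgG was 8.18 (7.82 to 8.57). The strongest 10% of sites, 532 in number, held 33.6% of the tags summed over sites, and the strongest 1% held 5.97%. The 90th percentile of the Tal1 level was 6.60 times the 10th. With fewer than 3 IgG tags at a site set to 3, 4508 sites (84.8%) stood at least 5-fold above IgG, 2272 (42.7%) at least 10-fold and 196 (3.69%) at least 50-fold. That floor of 3 IgG tags, 0.552 RPM, was in use at 3243 sites (61.0%), of which 798 had no IgG tag at all, so for most sites the floor and not the measured IgG tags set the fold.

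The fold that the deposited list prints is subject to the same limit. Divided into the tag number of its site and scaled by depth, it gave a whole number of background tags within 0.02 for all but 113 sites. That number was 1 at 4074 sites (76.7%), 2 at 745 and 3 at 280. The order of folds in the authors' list was therefore, for 76.7% of sites, the order of the Tal1 tag number alone.

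The list was cut into 10 parts of equal size by the caller's tag number, ties in random order, to follow the signal from strong to weak sites. The first part (48 to 187 caller tags) had a median of 25.6 Tal1 RPM and a fold over IgG of 70.1 (66.1 to 74.3). In the second part (29 to 48 tags) the fold was 35.2 (33.2 to 37.4), in the fifth (13 to 15) it was 13.2 (12.5 to 14.0), and in the last (8 tags) it was 7.98 (7.53 to 8.47). The mean IgG level hardly moved, from 0.388 to 0.477 RPM over the 10 parts. The fall in Tal1 level along the list was built in, since the caller's tag number set the order, and these values are a description. Single sites in the weak parts reached high Tal1 levels, up to 23.0 RPM in the last part. The window of 250 bp can take in tags of a neighbouring site, whose part was not tested.

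**Figure D1:**
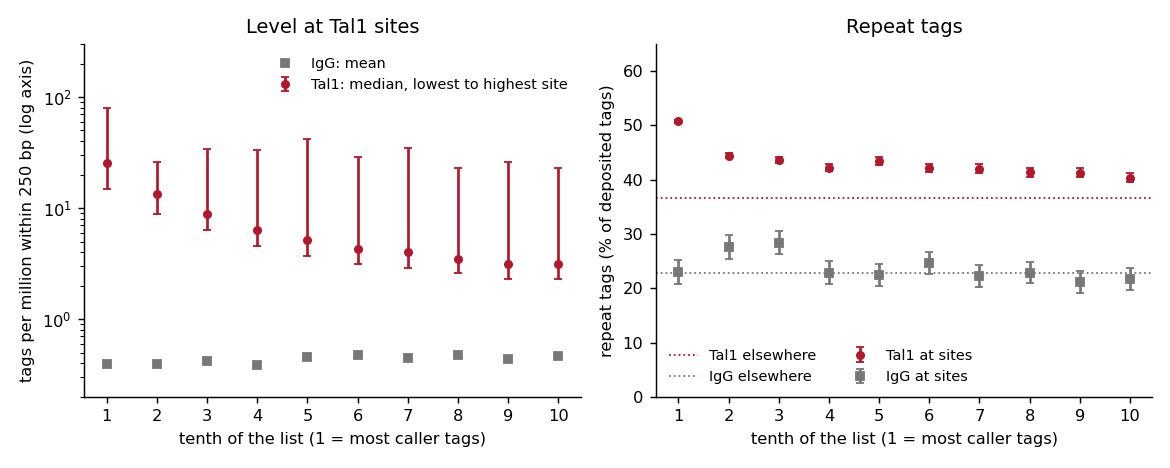
Tal1 sites in 10 parts of equal size by the caller's tag number, strongest first. Left, RPM within 250 bp on a log axis, with the Tal1 median and its lowest and highest site, and the IgG mean. Right, repeat tags as a percentage of deposited tags with 95% intervals, and dotted lines for the rest of the genome. The Tal1 median falls from 25.6 to 3.16 RPM while IgG stays between 0.388 and 0.477, and the Tal1 repeat share falls from 50.8% to 40.4%.

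The strongest site of each chromosome shows what the upper end of the list looks like. These 19 sites, taken among those with no more than 2 IgG RPM, had 36.2 to 78.8 Tal1 RPM with a median of 56.9. They had 0 to 9 IgG tags, with a median of 3. They were narrow in the list, 40 to 80 bp.

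The highest Tal1 level of all lay on chromosome 15 from 38488211 to 38488251. There Tal1 had 274 distinct tags (78.8 RPM) against 6 of IgG (1.10 RPM), a fold of 71.4 (32.4 to 196). The site on chromosome 7 from 24085971 to 24086011 had 260 tags (74.8 RPM) against 2 of IgG, a fold of 203 with a wide interval of 55.7 to 1686. Its fold in the authors' deposited table, 283.9, was the highest of the list. The Tal1 level at the 2 sites differed by 14 tags, so most of the difference in fold lay in the few IgG tags. On chromosome 16 from 32429511 to 32429551 there were 246 Tal1 tags (70.7 RPM) and no IgG tag. Set against the floor of 3 IgG tags this was 128-fold higher, and the lower limit of the exact interval was 103-fold.

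The next sites in strength had a similar make-up. On chromosome 11 from 102179851 to 102179891 Tal1 had 242 tags (69.6 RPM) against 3 of IgG, and the fold was 126 (42.6 to 616). On chromosome 6 from 29651271 to 29651311 it had 225 tags (64.7 RPM) against 4, with a fold of 87.9 (33.9 to 325). On chromosome 17 from 49486071 to 49486111 it had 221 tags (63.6 RPM) against a single IgG tag, with a fold of 345 and an interval of 61.3 to 13701. At sites of this kind the IgG library sets how precisely the fold is known. On chromosome 4 from 114593811 to 114593851, with 158 tags (45.4 RPM) and no IgG tag, Tal1 was 82.3-fold higher against the floor, with a lower limit of 66.2-fold. The weakest of the 19 lay on chromosome 13 from 59779971 to 59780011, with 126 tags (36.2 RPM) against 7 of IgG and a fold of 28.1 (13.3 to 71.4). Ldb1 and Gata1, whose tags played no part in the choice, stood at 20.1 and 11.5 RPM there. They stood at 47.2 and 24.1 RPM at the site on chromosome 15.

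The 3 sites with the lowest fold were of another kind. They lay within the first 3.1 Mb of chromosomes 9 and 11. On chromosome 11 from 3079451 to 3080291 Tal1 had 31 tags and IgG 37, a fold of 1.31 (0.785 to 2.17). On chromosome 9 from 3005611 to 3005651 the counts were 15 and 17, and from 3019451 to 3019491 they were 25 and 28. The intervals of all 3 folds included 1. In all, 16 sites lay in the first 3.1 Mb of a chromosome, 6 of them on chromosome 9 and 4 on chromosome 11, and 7 of the 16 had a fold under 3, against 109 of all 5315 sites. Most of the 109 sites with a fold under 3 thus lay outside this group of 16, and they are not described here. The group was chosen after its values were seen. Without it the fold over all sites was 19.2 (18.8 to 19.5).

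The tags at sites formed a separate pile on each strand. Of the plus-strand Tal1 5' ends within 250 bp of a centre, 75.4% (75.1 to 75.7) lay on its left, and of the minus-strand ends 24.7% (24.39 to 24.996) did. The median plus-strand end lay at -45 bp and the median minus-strand end at 55 bp. The caller places its centre where the strands change over, so this order at the centre was built in. For IgG at the same centres the shares on the left were 52.2% (50.9 to 53.4) and 47.9% (46.7 to 49.2). The IgG library thus had little of this order, although the sites were called with it as background.

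**Figure D2:**
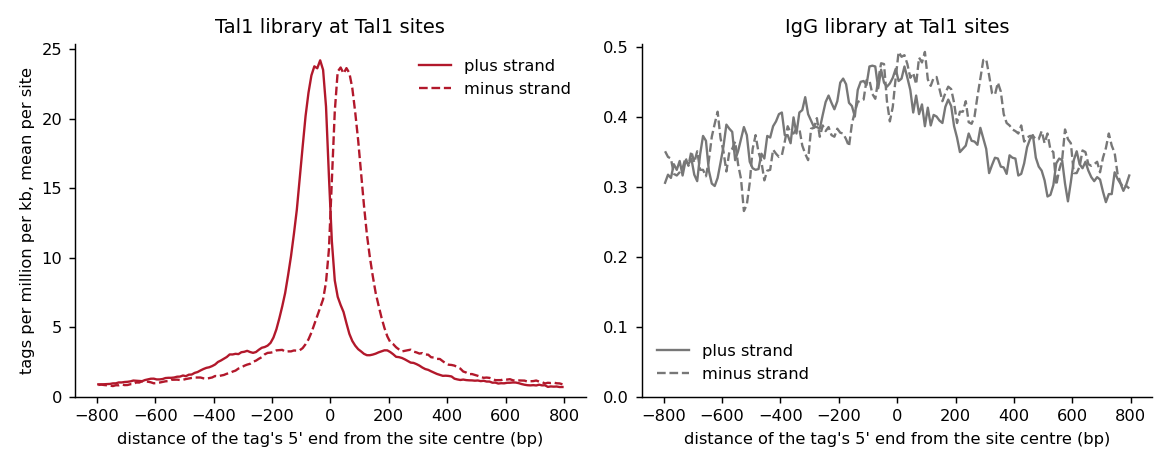
Mean tag density at the 5315 Tal1 sites by distance of the tag's 5' end from the site centre, in RPM per kb, for the Tal1 library (left) and the IgG library (right, with its own scale). Solid lines are plus-strand and dashed lines minus-strand tags. The Tal1 strands form separate piles with medians at -45 and 55 bp, while the IgG strands lie close together under 0.5 RPM per kb.

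After each 5' end had been moved 94 bp inward, which is 50% of the fragment length of 188 bp that the caller printed, the summed Tal1 profile was 189 bp wide at 50% of its height. Its top stood at 36.5 RPM per kb against 0.916 RPM per kb at 2 to 5 kb from the sites, a ratio of 39.9. The IgG profile rose to 0.949 from 0.507 RPM per kb, a ratio of 1.87, and was 757 bp wide. The width did not depend on the strength of the sites, with values from 183 to 194 bp over the 10 parts of the list. It did depend on the move. With 49 bp in place of 94 bp, which is close to 50% of the offset found below, the Tal1 profile was 126 bp wide.

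The offset between the strands was shorter than the caller's fragment length. Counted over all pairs of a plus-strand and a minus-strand 5' end on chromosomes 1 to 19, pairs were most frequent at a distance of 97 bp, where they stood at 8.79 times the level at 1500 to 2000 bp. At the distance that a fragment of 188 bp gives, they stood at 4.40 times. Within 500 bp of sites the most frequent distance was also 97 bp, and it lay between 96 and 116 bp in the 10 parts of the list. The top of this curve is broad, and at sites the frequency at the caller's length was still 0.642 of the highest.

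The same short offset was present away from the sites. Outside 5 kb of any Tal1 site, and without 1 kb bins of more than 25 IgG tags and their neighbours, the most frequent distance was 95 bp at 5.42 times the distant level. In the IgG library it was 139 bp at 1.80 times, in the Ldb1 library 98 bp at 2.31 times, and in the Gata1 library 109 bp at 1.78 times. Repeat tags made up 37.0% of the Tal1, 28.2% of the Ldb1, 22.8% of the IgG and 11.1% of the Gata1 tags. Genome wide, with sites included, the peak stood at 4.29 times in the Ldb1, 2.33 times in the Gata1 and 1.83 times in the IgG library. The part of repeats in these pairs was not tested.

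**Figure D3:**
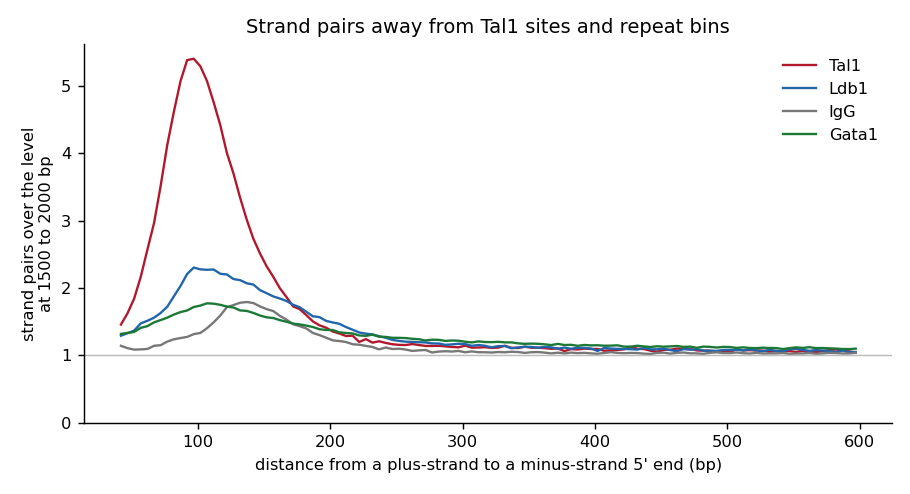
Frequency of pairs of a plus-strand and a minus-strand 5' end by their distance in bp, over the frequency at 1500 to 2000 bp, for distinct tags outside 5 kb of Tal1 sites and outside bins of many IgG tags. Distances under 40 bp, near the tag lengths, are not drawn. The Tal1 curve peaks at 95 bp with 5.42, above the Ldb1 (2.31), IgG (1.80) and Gata1 (1.78) curves.

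Repeat tags, those beyond the first at a position and strand, were more frequent at Tal1 sites than elsewhere. The site list did not use them, since the caller kept 1 tag per position. Within 250 bp of sites 45.4% (45.2 to 45.6) of the deposited Tal1 tags were repeats, against 36.6% (36.5 to 36.6) in the rest of chromosomes 1 to 19. For IgG the shares were 23.7% (23.1 to 24.4) and 22.8% (22.8 to 22.8). The excess at sites was 8.84 percentage points for Tal1 in this library. The intervals of these shares treat each tag as independent, which repeats at a position need not be. Ldb1 and Gata1 tags at Tal1 sites also held more repeats than elsewhere, 40.03% against 27.8% and 16.3% against 10.99%.

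The share of repeats was higher in the strong than in the weak parts of the list. The fall was not steady, with 42.2% in the fourth part and 43.4% in the fifth. The order was itself a count of Tal1 tags of the same library. How far this builds in the trend was not tested. In the strongest part of the list 50.8% (50.5 to 51.1) of Tal1 tags were repeats, and in the weakest 40.4% (39.5 to 41.3), with IgG between 21.1% and 28.4% over the 10 parts. The 19 strongest sites of their chromosomes had 44.2% to 65.4%. A different kind of site had the highest shares. Among sites with 30 or more deposited Tal1 tags, those with most repeats lay on chromosome 9 from 3002331 to 3002371 (85.0% of 147 tags), from 3004511 to 3004551 (78.7% of 202) and from 3019451 to 3019491 (78.4% of 116). IgG also had 26, 128 and 84 deposited tags there. Over the whole library 63.1% of the Tal1 positions held a single tag and 23.3% a pair, and 0.603% held 6 or more, up to 1192 at 1 position. For IgG 77.8% held a single tag.

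Keeping repeats therefore raised the fold at sites, to 21.4 (21.1 to 21.8). Distinct tags at sites also matched the genome better. Without a mismatch were 89.9% (89.8 to 90.1) of the distinct Tal1 tags at sites and 84.4% (84.4 to 84.5) elsewhere. In the deposited match classes 3.16% of distinct tags at sites and 6.30% elsewhere had 2 mismatches. Only 1 tag per position entered these shares, and sites held more deposited tags per position, 1.83 against 1.58 elsewhere. Among all deposited Tal1 tags on chromosomes 1 to 19, 80.7% had no mismatch. The part of keeping 1 tag per position in the difference was not tested.

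Fixed bins of 1 kb give a view that does not start from the site list. A bin was called where the level of one library was at least 5 times that of the other, with fewer than 3 tags in the lower library set to 3. Of 2148492 bins with a tag, 5297 (0.247%) were called for Tal1 and 19 (0.000884%) for IgG. A bin held on average 1.62 Tal1 and 2.53 IgG tags, so a call for Tal1 needed at least 10 tags and a call for IgG at least 24. The IgG library was deeper, and with IgG thinned to the number of Tal1 tags the counts were 3369 and 21. The rule compares 2 libraries, not conditions, and has no replicate check. The imbalance towards Tal1 was also present at a fold of 3, with 30774 against 67 bins, and with all deposited tags, with 16840 against 261. At a fold of 3 the Tal1 calls were 1.43% of bins, and at a fold of 10 they were 0.0896%.

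Bins and sites met in most cases. Of the 5315 sites 4001 (75.3%, 74.1 to 76.4) lay in a called bin, against 0.247% of all bins. Both come from the same contrast, so this says how far the rules coincide. Sites in called bins had a median of 6.61 Tal1 RPM and a mean of 0.349 IgG RPM. Sites outside had 3.45 and 0.698 RPM, thus a lower Tal1 and a higher IgG level. At a fold of 3, called in 1.43% of bins, 92.8% of sites lay in a called bin, and at a fold of 10, called in 0.0896%, it was 40.04%.

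There were 1224 called bins (23.1% of called bins, 22.0 to 24.3) with no Tal1 site in them or within 1 kb. Of all 2148492 bins with a tag, 0.247% were called. The share called among bins without a site is not given here. These 1224 bins were weak, with a median of 11 Tal1 tags (3.16 RPM) and at most 7.19 RPM. Called bins near sites had a median of 6.61 RPM. The other libraries give a readout that the rule did not use. Relative to the mean of all bins without a site in its own library, Ldb1 stood at 4.54 times (4.46 to 4.63) and Gata1 at 4.71 times (4.64 to 4.78) in these 1224 bins. IgG, which the rule asked to be low, stood at 0.878 times (0.846 to 0.912). In the 4073 called bins near sites Ldb1 stood at 16.3 times and Gata1 at 10.5 times. In the 19 bins called for IgG, Ldb1 stood at 1.97 times (1.54 to 2.49) and Gata1 at 6.81 times (6.15 to 7.53). Gata1 was thus above its own mean in bins called for either library. By this measure its level in the unlisted Tal1 bins was below that in the bins called for IgG. IgG itself, which the rule asked to be high in those 19 bins, stood at 13.9 times its own mean there. Set over IgG, the order of Gata1 was the opposite. It stood at 5.08 times IgG (4.88 to 5.29) in the unlisted Tal1 bins and at 0.465 times (0.409 to 0.529) in the bins called for IgG. The rule used the IgG level, so the order of this ratio was partly built in.

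Of these unlisted bins, the 5 with the highest Tal1 level had folds from 5.36 to 11.5. The first, on chromosome 8 from 4087001 to 4088000, had 25 Tal1 and 7 IgG tags, a fold of 5.58 (2.35 to 15.3). Those on chromosome 6 from 113042001 to 113043000 and from 145207001 to 145208000 had 24 and 7 tags each. The remaining 2 had fewer IgG tags. The bin on chromosome 6 from 112662001 to 112663000 had 22 Tal1 and 3 IgG tags, and the bin on chromosome 13 from 49199001 to 49200000 had 21 and 4. All 5 were 157131 bp or more from the nearest Tal1 site.

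A high Tal1 count alone did not mark enrichment. The 3 bins with the most IgG tags were neighbours on chromosome 17 from 39451001 to 39454000, with 548, 579 and 487 IgG tags. Tal1 had 479, 748 and 633 tags there, more than the 274 within 250 bp of the strongest site, yet the folds were only 1.37, 2.02 and 2.03. None of the 196 bins with over 25 IgG tags was called for Tal1. Of all bins 0.247% were called, so no call among 196 is near that share and says nothing particular about these bins.

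Around the sites the ratio of Tal1 to IgG fell with distance, fast at first and then slowly over the whole range measured. It was 34.2 (33.2 to 35.2) within 100 bp, 7.27 (7.08 to 7.46) at 100 to 250 bp and 2.63 (2.56 to 2.70) at 250 to 500 bp. From 2 to 5 kb it was 1.24 (1.23 to 1.26), from 20 to 50 kb 1.11 (1.11 to 1.12), and from 200 to 500 kb 0.969 (0.966 to 0.972). Beyond 1000 kb, where 24.9% of the Tal1 and 29.96% of the IgG tags lay, it was 0.832 (0.830 to 0.834). No interval from 2 kb outward overlapped that of the next class. The ratio at 2 to 5 kb was 1.496 times (1.48 to 1.51) that beyond 1000 kb. The same direction held on each of the 19 chromosomes, with ratios of 1.06 to 1.24 at 2 to 50 kb and of 0.836 to 0.900 beyond 500 kb.

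This slow part was not particular to Tal1. The ratios of Ldb1 and of Gata1 to the same IgG library, at the same distances from Tal1 sites, also fell, from 1.31 and 1.41 at 2 to 5 kb to 0.870 and 0.833 beyond 1000 kb. These 3 comparisons share the IgG library and are given side by side. With Gata1 in place of IgG, which has the tag length of Tal1, the direction from 1 kb outward was the opposite. Tal1 over Gata1 was 2.60 (2.57 to 2.62) within 100 bp, 0.835 (0.819 to 0.850) at 500 to 1000 bp, 0.885 (0.875 to 0.894) at 2 to 5 kb and 0.999 (0.997 to 1.002) beyond 1000 kb. In between it was 1.54 (1.52 to 1.56) at 100 to 250 bp and 1.05 (1.03 to 1.07) at 250 to 500 bp. The ratio thus fell against both libraries over the first 1000 bp, and from 2 kb outward it fell against IgG and rose against Gata1.

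**Figure D4:**
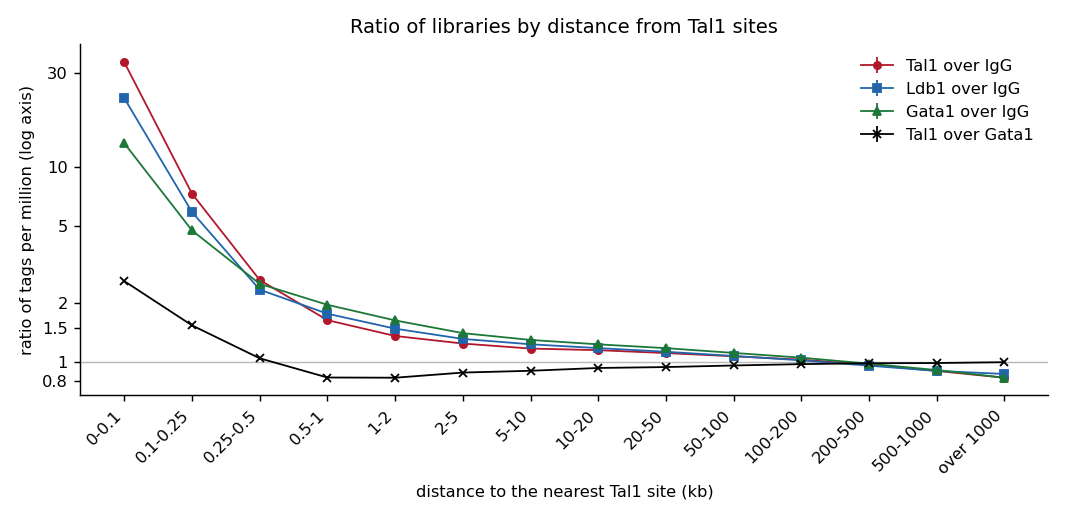
Ratio of RPM between libraries, on a log axis, by distance to the nearest Tal1 site, with 95% intervals mostly smaller than the symbols. Tal1, Ldb1 and Gata1 are set over the same IgG library, and crosses set Tal1 over Gata1. Tal1 over IgG falls from 34.2 within 0.1 kb to 0.832 beyond 1000 kb, while Tal1 over Gata1 is lowest at 0.5 to 2 kb and near 1 beyond 1000 kb.

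At the Tal1 sites themselves the other antibodies had their own signal, which the list did not use apart from the shared IgG library. Ldb1, the adaptor that bridges such complexes, stood at 12.9 times IgG (12.7 to 13.2), and Gata1, the erythroid zinc finger factor, at 8.33 times (8.18 to 8.49). Over their own level 2 to 5 kb away, with no use of IgG, they stood at 12.8 (12.7 to 12.9) and 8.38 (8.32 to 8.44). Their profiles were 195 and 205 bp wide. From the strongest to the weakest part of the Tal1 list the Ldb1 fold over IgG went from 45.7 (43.1 to 48.5) to 5.12 (4.82 to 5.44), and the Gata1 fold from 23.5 (22.2 to 24.98) to 4.57 (4.31 to 4.84). Both libraries were therefore above IgG at the weakest Tal1 sites too. Across the 5315 sites the Spearman rho of Tal1 tags was 0.779 with Ldb1 and 0.719 with Gata1, as a description over sites that share their libraries.

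The number of sites differed between chromosomes far more than the level at a site. Per 1000000 IgG tags, which stand in for the length that could be mapped, chromosome 11 had 1666 sites (1519 to 1823) and chromosome 19 had 1444 (1250 to 1659). Chromosome 3 had the fewest, 597 (519 to 683), followed by chromosome 14 with 646 (552 to 751). The highest was 2.79 times the lowest (2.37 to 3.30). These were picked as the extremes of 19 chromosomes, which the interval does not take into account. Chromosome 11 held 475 sites, 8.94% of the list, with 5.25% of the IgG tags. Restricting the list to the 2680 sites with 13 or more caller tags gave 2.71 times between the same chromosomes.

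The median level at a site was nearly the same on every chromosome. The caller's single minimum of 8 tags bounds it from below everywhere, and the 10th percentile was 2.88 to 3.16 RPM. The likeness was thus partly built in. The median ran from 4.89 to 5.75 Tal1 RPM, 17 to 20 tags, and the summed fold over IgG from 16.0 (14.8 to 17.3) on chromosome 9 to 21.0 (19.4 to 22.7) on chromosome 6. Outside 5 kb of sites the ratio of the libraries also varied, from 0.947 on chromosome 3 to 1.08 on chromosome 11. Over the 19 chromosomes this ratio went with the density of sites (Pearson r = 0.902, Spearman rho = 0.893). The summed fold at sites went the other way, lower where sites were denser (Pearson r = -0.623, Spearman rho = -0.533). Both are descriptions over chromosomes that share the libraries, and the IgG tags enter each measure.

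**Figure D5:**
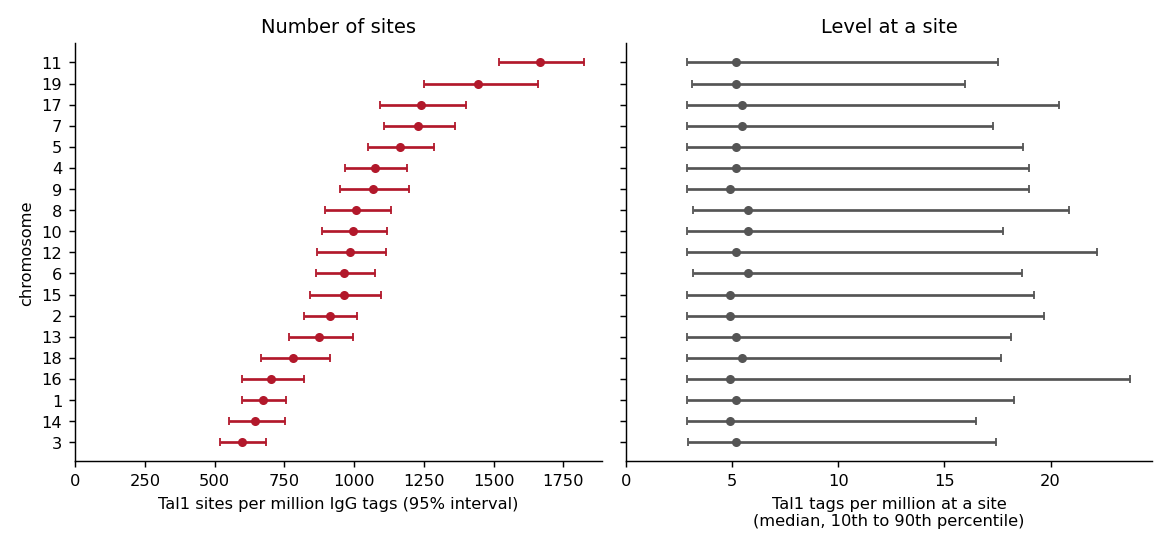
Left, Tal1 sites per 1000000 IgG tags of each chromosome with 95% Poisson intervals, in order of density. Right, Tal1 RPM within 250 bp of a site on the same chromosomes, with the median and the 10th to 90th percentile over sites. Density runs from 597 on chromosome 3 to 1666 on chromosome 11, while the medians stay between 4.89 and 5.75 RPM.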

How the data were processed

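Tags came as the authors deposited them, 1 aligned position per line and repeats kept. The build is mm8 per the submitters' processing notes, and the aligner is not given in the sources used here. The site list was made with SISSRs 1.4, per the file headers, on 1 tag per position with IgG as background, an e-value of 10, a p setting of 0.001, a fragment length of 188 bp, windows of 20 bp, at least 8 tags and a fold of at least 4.0. Its tag counts, fold ratios and p-values are the authors' and served only to rank and describe sites; they are deposited per site, not pooled.

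Computed here with Python 3.11.15, numpy 2.4.6, pandas 2.3.3, scipy 1.17.1 and matplotlib 3.10.9: 1 tag was kept per position and strand on chromosomes 1 to 19, its 5' end was moved 94 bp inward, and tags were scaled to RPM. Joined windows of 250 bp about site centres, bins of 1 kb, strand pairs up to 600 bp (leaving out 5 bp about the tag length), profiles in steps of 10 bp and distances to the nearest site were counted. Ratios have exact conditional, shares exact Clopper-Pearson and site numbers exact Poisson 95% intervals. A bin was called by a fold of 5 with a floor of 3 tags. With 1 library a side no test between conditions exists. The code was tested on simulated data. Named sites are the strongest of each chromosome with at most 2 IgG RPM, the 3 lowest folds, the 3 highest repeat shares, the 5 strongest called bins without a site and the 3 bins with most IgG tags. The comparison and its rules were chosen with earlier results of these data known. Motif searches were not run.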

Additional observations from a re-analysis of the deposited data

Results flagged for a closer look

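Chromosome X lies outside the comparison of chromosomes 1 to 19 and drew attention because Tal1 stood above the IgG level at its listed sites. These sites were called on the same 2 libraries, so that direction was built in and the fold is a description. At its 76 Tal1 sites there were 1755 distinct Tal1 and 127 IgG tags, a fold of 21.6 (18.0 to 26.1) on the scale of the other chromosomes. It had 241 sites (190 to 302) per 1000000 of its IgG tags, which numbered 315041, below the 597 (519 to 683) of chromosome 3. Tal1 over IgG for the whole chromosome was 0.830 (0.825 to 0.835), and the caller's median was 11.5 tags a site.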

How the results depend on the processing

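The values were recomputed under 52 alternatives: 21 gave a value inside the 95% interval of the reported one (within 10 bp for a width or offset and 1.5 times for a number or for the spread over sites), 30 moved and 1 reversed; 13 of the 52 were chosen after seeing the data. The fold at sites was 34.0 in windows of 100 bp, 11.8 in 500 bp, 21.4 with all deposited tags, 30.3 at sites with 13 or more caller tags, 19.8 when scaled to tags outside 5 kb of sites, 20.5 with tags without a mismatch and 19.2 without sites in the first 3.1 Mb of a chromosome. The share of Tal1 tags at sites was 3.29%, 4.65%, 4.85% and 3.30% under the first 4 of these. Bins called for Tal1 numbered 30774 at a fold of 3, 1926 at 10, 16840 with all deposited tags, 3369 with thinned IgG and 45205 without the floor; those for IgG numbered 67 at a fold of 3 and 261 with all deposited tags. The share of sites in called bins was 92.8% at a fold of 3 and 40.04% at 10. The profile was 126 bp wide with a move of 49 bp. The excess of repeats at sites was 9.67 percentage points within 100 bp, 8.33 within 500 bp and 7.68 among tags without a mismatch. With all deposited tags Ldb1 stood at 15.3 and Gata1 at 8.74 times IgG, and within 500 bp at 8.37 and 5.82. The ratio at 2 to 5 kb over that beyond 1000 kb was 1.58 with all deposited tags and 1.58 without mismatches, and reversed to 0.885 with Gata1 in place of IgG. Causes were not tested. No paired analysis was possible because there is no second library of Tal1 or of IgG, so none could be left out either. Depth limits single sites: at the named site on chromosome 17, with 1 IgG tag, the interval of the fold was 61.3 to 13701.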

Other observations

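Tal1 sites were spread unevenly within chromosomes. Of 2378 windows of 1 Mb with at least 500 IgG tags, 1150 (48.4%) had no Tal1 site, and the median window had 1. The 238 windows with the most sites, 10% of all, held 49.02% of the sites that lay in the 2378 windows. The fullest, on chromosome 10 from 79000001 to 80000000, held 35 sites. The genes in these windows were not determined.

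Neighbouring sites were a median of 59215 bp apart and never closer than 190 bp. A neighbour lay within 500 bp of 858 sites (16.1%) and within 20000 bp of 2906 (54.7%). Of pairs under 1000 bp, 225 were 200 to 300 bp apart, 128 were 300 to 400 bp, 72 were 400 to 500 bp and 27 were 900 to 1000 bp. The number of close pairs thus fell with distance from just above the caller's fragment length of 188 bp. Whether the caller can list closer pairs was not tested.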
